A study of Mus musculus with 55 samples.

Results

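The cytosolic ribosomal protein genes were followed through the exit of mouse embryonic stem (ES) cells from mitosis, at the level of their pre-mRNA. Members were the rows whose symbol begins with Rpl or Rps and a digit, together with Rplp0 to Rplp2 and Rpsa, leaving out pseudogene symbols with -ps and the S6 kinases. This gave 82 of 9911 genes in the table of the CCNA-GFP line and 81 of 10237 genes in the table of the CTCF-AID line, where Rpl41 was the member not analysed. By name, 44 of the 82 encode proteins of the large subunit and 31 proteins of the small subunit. A further 6 are paralogue-type genes (Rpl22l1, Rpl39l, Rpl3l, Rpl7l1, Rps27l and Rpl37rt), and Rps19bp1 encodes a binding partner of RPS19 rather than a ribosomal protein, so the symbol rule is wider than the label in 7 cases. Gencode vM21 holds 86 protein-coding genes that match the rule, of which Rpl10l, Rpl29, Rpl34, Rpl36al and Rps27rt were not analysed here. The member Rpl37rt is outside these 86, being annotated as a transcribed processed pseudogene. The authors listed only genes above a TPM threshold in asynchronous or post-mitotic cells, a filter that mitotic samples did not enter.

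Both lines derive from E14Tg2a ES cells (strain 129/Ola) grown in serum and LIF, the first carrying a cyclin A-GFP cell-cycle reporter and the second a CTCF protein fused to an auxin-inducible degron. Asynchronous cells were compared with cells arrested by 10 µM RO-3306 (a CDK1 inhibitor) for 4 h and then 50 ng/ml nocodazole (a microtubule poison) for 4 h, collected by shake-off and released for 20 to 120 min. CTCF-AID cells were profiled without IAA and with 0.5 mM IAA (auxin), added for the last 2 h of nocodazole and kept on during the release to deplete CTCF. Asynchronous cells were exposed for 4 h, so exposure to IAA differed between stages. Each line is a single derivative, and the tagged CTCF is carried in both IAA arms. Asynchronous and mitotic groups had 3 libraries each and released groups had 2, except 50 min in CCNA-GFP with 1 library, giving 19 libraries of CCNA-GFP and 18 in each CTCF-AID arm. Per the study's methods the replicates of a line and condition were generated independently. Pluripotency genes checked the cell type: 7 of 8 were listed, with a summed pre-mRNA level of 24.7 to 104 TPM in CCNA-GFP libraries, 39.7 to 126 TPM without IAA and 37.4 to 111 TPM with IAA. Of other lineages, 0 of 4 endoderm genes were listed, trophoblast genes summed to at most 5.26 TPM, neural genes to at most 2.00 TPM and fibroblast genes to at most 4.15 TPM in any library.

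A eukaryotic ribosome carries a single copy of most of its proteins, which are made in matched amounts from unlinked genes and assembled with ribosomal RNA in the nucleolus. The genes are short and strongly transcribed, many of their introns hold small nucleolar RNAs (snoRNAs), and most of their transcripts begin with a C followed by a run of pyrimidines, the terminal oligopyrimidine or TOP motif through which mTOR signalling controls their translation. During mitosis most transcription stops, and it resumes as chromosomes decondense. Pre-mRNA, measured here, follows transcription more closely than the long-lived ribosomal protein mRNAs do.

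The 82 members lay on 19 chromosomes in Gencode vM21 (GRCm38), with genes of 828 to 31449 bases (median 3500), and 30 of them contained 58 annotated snoRNAs. RefSeq promoters (GRCm38.p6) matched 63 members. The windows from 50 bases before to 15 bases into the transcript are shown for 6 of them, because they span the range of responses described below, with capitals marking runs of 6 or more C or T on the gene strand. Rps12 (chr10:23787195-23787259, minus strand), Rps21 (chr2:180257399-180257463, plus strand, 1 of 2 starts) and Rps27 (chr3:90213634-90213698, minus strand) encode small-subunit proteins whose pre-mRNA rose most or among the most after mitosis. Rpl13a (chr7:45128731-45128795, minus strand) had the highest level. In CCNA-GFP Rpl22 (chr4:152325676-152325740, plus strand, 1 of 2 starts) was not called at 60 min and Rps10 (chr17:27635230-27635294, minus strand) was lower.
Rps12: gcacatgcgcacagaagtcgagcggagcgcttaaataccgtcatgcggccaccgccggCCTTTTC
Rps21: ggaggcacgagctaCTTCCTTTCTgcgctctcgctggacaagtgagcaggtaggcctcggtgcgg
Rps27: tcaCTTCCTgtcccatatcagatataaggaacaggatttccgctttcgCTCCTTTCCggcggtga
Rpl13a: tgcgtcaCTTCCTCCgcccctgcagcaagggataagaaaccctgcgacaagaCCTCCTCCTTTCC
Rpl22: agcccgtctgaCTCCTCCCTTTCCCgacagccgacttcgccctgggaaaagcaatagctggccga
Rps10: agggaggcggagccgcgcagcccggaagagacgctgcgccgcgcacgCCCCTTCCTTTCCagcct
Pyrimidine runs stood in windows from both ends of the response range, including those of Rps10 and of the Rpl22 start shown, while the window at the other Rpl22 start (chr4:152324386-152324450) held none. The letters CTTTC occurred on the gene strand within 50 bases of a start in 32 of the 63 members (50.8%, against 14.6% of 27025 genes with a promoter). The ETS-type core CCGGAAG, searched on both strands over the whole 300-base promoters, was found in 25 members (39.7% against 9.93%), and the letters ATGGCG, also on both strands, in 19 (30.2% against 10.2%). A degenerate CTCF core motif, on both strands, was in 3 members (4.76% against 2.82%) and TATAAA, from 50 bases before the start, in 1 (1.59% against 3.15%). Between mitosis and 60 min in CCNA-GFP, the median log2 change of members with and without the letters was 0.82 and 0.92 for CTTTC, 0.82 and 1.05 for CCGGAAG, and 0.90 and 0.85 for ATGGCG. In CTCF-AID without IAA these medians were 0.32 and 0.48, 0.22 and 0.52, and 0.54 and 0.38, and none of the differences was tested. These letter matches are descriptions of the windows and were not tested as binding sites.

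Ribosomal protein genes made up a smaller share of the listed pre-mRNA at 60 min than in mitotic or cycling cells. In CCNA-GFP the members took 4.49%, 4.66% and 3.72% of the summed TPM in the 3 mitotic libraries, 3.30% and 3.65% at 60 min, and 4.59%, 4.93% and 4.03% in asynchronous cells. For every replicate number with both stages, the share at 60 min was below the mitotic share, and the asynchronous share was above it. CTCF-AID cells without IAA moved the same way, from 3.92%, 3.82% and 3.47% in mitosis to 2.75% and 2.82% at 60 min, and to 4.24%, 4.55% and 4.12% in asynchronous cells. With IAA the shares were 3.57%, 3.89% and 3.45% in mitosis, 2.76% and 2.85% at 60 min, and 3.97%, 4.34% and 4.01% in asynchronous cells. In both CTCF-AID arms the 60 min libraries lay below all mitotic and all asynchronous libraries. A single gene, Rpl13a, carried much of the mitotic share in CCNA-GFP. Without it the members took 3.39%, 3.59% and 3.03% in mitosis and 2.82% and 3.09% at 60 min, lower within each replicate number but overlapping between the groups. The summed TPM of all listed genes rose over the same period, from 13747 to 17245 in mitotic CCNA-GFP libraries to 30992 and 42576 at 60 min, so a lower share went with a higher TPM for most members. Sequencing depth is unknown, since TPM values hold no counts.

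**Figure D1:**
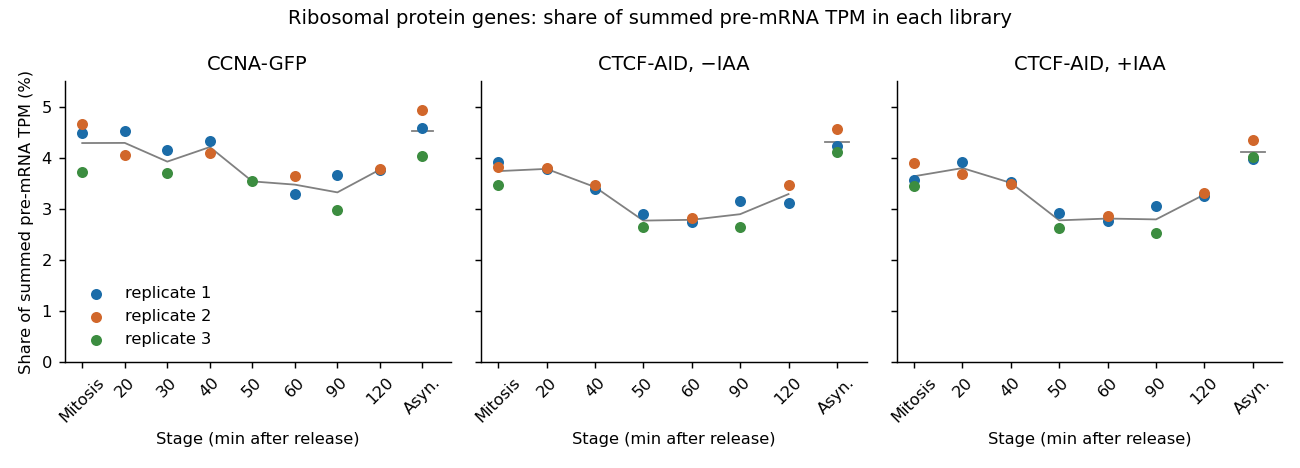
Share (%) of the summed TPM of all listed genes taken by the ribosomal protein genes, against the stage of release, in CCNA-GFP, CTCF-AID without IAA and CTCF-AID with IAA. Each point is a library coloured by replicate number and the grey line joins stage means; the share falls from mitosis to 50 to 90 min and is highest or near its highest in asynchronous cells.

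The first comparison asked when each gene resumed transcription after mitosis. In CCNA-GFP the members were already abundant among mitotic pre-mRNAs, with a median of 4.98, 5.46 and 5.52 TPM in the 3 mitotic libraries against 0.91, 0.83 and 1.07 TPM over all listed genes. At 20 min 0 of 82 members differed from mitosis (limma, replicate block, Benjamini-Hochberg adjusted p under 0.05), where 0.0% of all genes were called and 6 members had an unadjusted p under 0.05. Rps21 was the single member higher at 30 min (log2 difference 0.93, 0.303% of all genes called). That call was lost without the block and without replicate 1, and the count at 30 min was 10 with the rounding factor, an inferred scaling per library, and 11 without replicate 2. The main change came at 40 min, when 66 members were higher and 1, Rpl24, was lower, against 49.3% of all genes higher and 0.0404% lower. The 66 include Rpl3l, listed only through its high released groups, and 65 of 81 were higher without it. The median log2 difference of the members at that time was 0.53, against 0.26 over all genes. Without replicate 1, 32 members were higher at 40 min, and with every library brought to one common summed TPM (the same total) 27 were higher and 16 lower, against 23.7% and 31.3% of all genes. The same total removes a rise shared by all genes, so its values are relative to the summed TPM. A rise smaller than that of the summed TPM becomes negative under it.

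By 60 min 78 of the 82 members were higher than in mitosis and 1, Rps10, was lower, against 88.3% and 0.515% of all genes. One of the 78 is Rpl3l, whose rise the level filter fixed, and 77 of 81 were higher without it. The median log2 difference of members was 0.94 against 0.79 over all genes on the deposited scale, and -0.16 against 0.02 with the same total, where 22 members were higher and 36 lower (36.4% and 33.3% of all genes). The members' median thus stood 0.15 above that of all genes on the deposited scale and 0.18 below it with the same total, and it was also below by 0.13 with a pseudocount of 0.1 TPM and by 0.05 with a minimum mean of 1 TPM. Most listed genes shared the rise in TPM. At 90 min 72 members were higher (89.1% of all genes) and 0 lower (0.948%). At 120 min 73 were higher (90.2%) and again 0 lower (0.656%). Leaving out Rpl3l, 71 of 81 were higher at 90 min and 72 of 81 at 120 min. With the same total 22 members were higher and 36 lower at 90 min (31.8% and 26.2% of all genes), and 25 higher and 30 lower at 120 min (28.7% and 23.5%). Under the same count rule, asynchronous cells exceeded mitotic cells in 69 members and fell below them in 2 (70.4% and 1.97% of all genes), and 41 and 16 with the same total (24.8% and 20.3%). In this comparison the members' median was 0.74 against 0.33 over all genes, and it was above that of all genes under every setting tried (by 0.22 to 0.49).

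Genes of both subunits were mostly higher at 60 min in CCNA-GFP on the deposited scale, as were 88.3% of all genes. Of the large-subunit genes 42 of 44 were higher and 0 lower, with a median log2 difference of 1.01, and of the small-subunit genes 30 of 31 were higher and 1 lower, with a median of 0.92. Of the paralogue-type genes, leaving out Rpl3l because the level filter fixed its rise, 4 of 5 were higher, with a median of 0.78. With the same total 10 large-subunit genes were higher and 21 lower (median -0.18), and 10 small-subunit genes higher and 14 lower (median -0.18). Over all 9911 genes that scaling gave 3607 higher and 3302 lower. The difference between the subunits was not tested. Single members ran from -0.75 for Rps10 to 2.61 for Rps12.

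The largest rises belonged to Rps12, Rps21, Rpl41, Rpl9 and Rpl10a. Rps12, a protein of the small-subunit head (chr10:23785183-23787275, minus strand), stood at 1.43, 3.69 and 1.66 TPM in mitosis, at 11.9 and 8.21 TPM at 40 min, at 22.5 and 15.2 TPM at 60 min and at 15.6, 19.4 and 21.9 TPM in asynchronous cells. All its 40 min, 60 min and asynchronous libraries exceeded all mitotic libraries, and the log2 difference at 60 min was 2.61 ± 0.24 (SE; adjusted p = 3.3e-09, limma), or 1.48 with the same total. Rps21, a small-subunit protein (chr2:180257377-180258445, plus strand), went from 1.57, 2.29 and 2.56 TPM in mitosis to 16.6 and 12.6 TPM at 60 min, a log2 difference of 2.34 ± 0.17. Rpl41, the shortest ribosomal protein, had 3.14, 3.49 and 2.47 TPM in mitosis and 20.8 and 18.0 TPM at 60 min, a log2 difference of 2.28 ± 0.18. These groups did not overlap either. Rpl9 (chr5:65388364-65391444, minus strand) rose from 0.697, 2.09 and 1.15 TPM to 10.5 and 7.35 TPM, and Rpl10a, the protein of the mobile L1 stalk (chr17:28328471-28331033, plus strand), from 4.08, 7.37 and 3.57 TPM to 28.8 and 20.4 TPM. Their log2 differences were 2.13 ± 0.22 and 2.11 ± 0.26, and all 5 of these genes stayed higher with the same total (0.87 to 1.48). The exon union of Gencode vM21 covers 96.8% of Rps12, 98.0% of Rpl41 and the whole of Rpl9, so their pre-mRNA isoform holds little or no intron sequence, and its part in these values was not tested.

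A few members were not called higher at 60 min. Rps10, a protein of the small-subunit head (chr17:27630418-27636669, minus strand), stood at 5.26, 5.45 and 6.89 TPM in mitosis and at 3.92 and 1.98 TPM at 60 min, returned to 6.20 and 7.01 TPM at 120 min and reached 6.56, 7.28 and 9.68 TPM in asynchronous cells. Both 60 min libraries lay below all mitotic libraries, with a log2 difference of -0.75 ± 0.16 (adjusted p = 0.00025, limma), and 120 min exceeded 60 min by 0.99 ± 0.17. Without replicate 2 the 60 min difference was -0.40 and not called. Rpl24, which forms a bridge between the subunits (chr16:55966275-55971435, plus strand), had 1.81, 1.13 and 1.91 TPM in mitosis, 0.387 and 0.810 TPM at 40 min, 1.29 and 1.03 TPM at 60 min and 4.79, 5.87 and 6.19 TPM in asynchronous cells. It was lower at 40 min (-0.68 ± 0.19, adjusted p = 0.0051, but -0.33 and not called without replicate 1), not called at 60 min (-0.24 ± 0.19) and higher in asynchronous cells (1.35 ± 0.16). The annotated genes RPS10-NUDT3 and Gm28037 overlap Rps10 and Rpl24 on the same strand, and reads from overlapping genes could be shared between them. Rpl22, a large-subunit protein that also binds other cellular RNAs (chr4:152325742-152334071, plus strand), had 11.3, 10.6 and 11.4 TPM in mitosis and 14.2 and 10.6 TPM at 60 min, groups that overlap (0.19 ± 0.14, not called). Rpl22l1, its paralogue, was listed at 0 in 2 of the 3 mitotic libraries and in 1 of 2 at 60 min, and is too low to place.

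**Figure D2:**
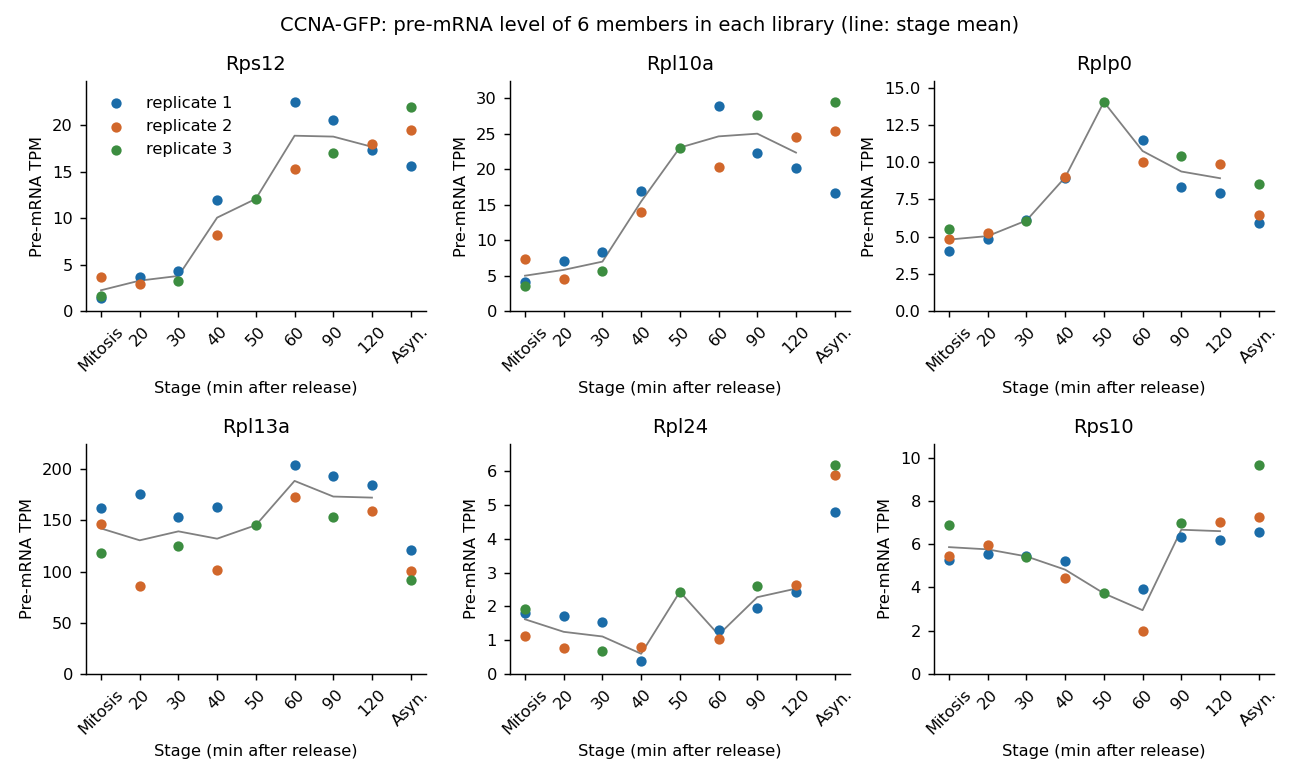
Pre-mRNA level (TPM) of Rps12, Rpl10a, Rplp0, Rpl13a, Rpl24 and Rps10 in each CCNA-GFP library against the stage, with points coloured by replicate number. Rps12 and Rpl10a climb from 40 min, Rpl13a stays at 85.4 TPM or more throughout, and Rps10 dips to 3.92 and 1.98 TPM at 60 min.

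Rpl13a, a large-subunit protein that can leave the ribosome to repress inflammatory mRNAs (chr7:45125558-45128761, minus strand), had the highest mean level of all members in CCNA-GFP, 145 TPM, and TPM is a measure per transcript length. Its libraries read 162, 147 and 118 TPM in mitosis, 204 and 173 TPM at 60 min and 121, 100 and 92.2 TPM in asynchronous cells. The gene was higher at 60 min (0.34 ± 0.14, adjusted p = 0.027) and lower in asynchronous cells than in mitosis (-0.43 ± 0.12), with the 60 min difference turning to -1.02 with the same total. The 60 min call was also lost with the rounding factor, without the block and without replicate 1 or 3, at 0.17 to 0.41. It hosts 4 snoRNAs (Snord32a, Snord33, Snord34 and Snord35a) and is overlapped on its strand by Gm45713, whose part in the level was not tested. In CTCF-AID cells without IAA the level read 65.4, 74.0 and 83.6 TPM in mitosis and 81.3 and 94.3 TPM at 60 min, in a table that may be scaled separately. The next highest means in CCNA-GFP were those of Rpl23a (24.4 TPM), which lies at the nascent-chain exit, Rpl4 (22.6 TPM) and Rpl23 (22.4 TPM). Rpl23a rose by 0.81 ± 0.12 and Rpl4 by 1.11 ± 0.14 at 60 min, while Rpl23 rose by 0.31 ± 0.13, a call that each omission of a replicate removed, and with the same total the 3 differences were -0.49, -0.19 and -1.0. The lowest means were those of Rpl22l1 (0.317 TPM), Rpl3l (0.391 TPM), Rps13 (0.985 TPM) and Rpl37rt (1.22 TPM).

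Proteins of the acidic stalk, which recruits translation factors to the large subunit, rose together but ended at different levels. Rplp0, the base of the stalk (chr5:115559467-115563727, plus strand), had 4.04, 4.85 and 5.54 TPM in mitosis, 11.5 and 10.0 TPM at 60 min and 5.95, 6.43 and 8.55 TPM in asynchronous cells. Rplp1 had 8.68, 8.87 and 7.17 TPM, then 25.3 and 19.6 TPM, then 19.6, 20.9 and 21.2 TPM at those stages. Rplp2 had 15.9, 15.7 and 18.8 TPM, then 29.8 and 24.0 TPM, then 15.3, 17.3 and 20.5 TPM. All 3 were higher at 60 min without overlap, by 1.1 ± 0.14, 1.29 ± 0.13 and 0.73 ± 0.12, of which the same total left 0.023 for Rplp1 and turned Rplp0 to -0.094 and Rplp2 to -0.57. On the deposited scale the difference between asynchronous and mitotic cells was 1.23 ± 0.12 for Rplp1 and 0.45 ± 0.12 for Rplp0, whereas Rplp2 was at 0.07 ± 0.10 and not called. The same total gave 0.68, -0.064 and -0.51, so of the 3 only Rplp1 rose by clearly more than the summed TPM. Rplp0 rose on the deposited scale by about as much as the summed TPM.

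Rps27a and Rps27, which rose less than Rps12 and Rps21, rose most among the small-subunit genes named for their role. Rps27a, made as a fusion with ubiquitin, went from 3.38, 4.35 and 4.41 TPM in mitosis to 16.7 and 12 TPM at 60 min and 17.5, 17.9 and 23.8 TPM in asynchronous cells, a difference at 60 min of 1.65 ± 0.16. Rps27, a zinc-finger protein, went from 1.43, 2.16 and 1.94 TPM to 11.1 and 7.99 TPM and then 10.7, 12.3 and 14.6 TPM, a difference at 60 min of 1.91 ± 0.17. Both remained higher with the same total (0.46 and 0.83). Rps6, the substrate of S6 kinases, rose from 5.68, 5.48 and 5.37 TPM to 13.1 and 9.97 TPM (0.92 ± 0.15) and stood higher still in asynchronous cells, at 12.6, 16.3 and 16.2 TPM. Rps19, mutated in Diamond-Blackfan anaemia, took the opposite course after its rise, from 16.7, 16.1 and 19.2 TPM in mitosis to 29.1 and 25.7 TPM at 60 min and back to 18.1 and 18.6 TPM at 120 min. The rise was 0.72 ± 0.12 and the later fall -0.55 ± 0.13. Rps3, at the mRNA entry channel, rose by 0.82 ± 0.15, and Rpsa, also known as the laminin receptor precursor, by 0.70 ± 0.14. With the same total the differences were -0.29 for Rps6, -0.58 for Rps19, -0.40 for Rps3 and -0.58 for Rpsa. Rps13, listed at 0 in 1 mitotic library and at 0.432 and 0.253 TPM in the others, reached 2.09 and 1.73 TPM at 60 min (1.27 ± 0.17).

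Large-subunit proteins differed widely in their response. Rpl10, added late in subunit maturation, had 3.24, 5.65 and 5.40 TPM in mitosis and 25.4 and 17.2 TPM at 60 min, a difference of 1.98 ± 0.20 that was 0.75 with the same total. Rpl7 rose by 1.35 ± 0.18 and Rpl36 by 1.36 ± 0.20, of which the same total left 0.22 and 0.069. The pair that joins 5S rRNA and can bind Mdm2 was split in asynchronous cells on the deposited scale. Rpl5 had 10.3, 9.53 and 11.4 TPM in mitosis, 19.4 and 16.4 TPM at 60 min and 14.3, 14.7 and 18.0 TPM in asynchronous cells. Rpl11 (chr4:136028265-136053428, minus strand) had 1.36, 1.1 and 1.27 TPM, then 3.31 and 2.47 TPM, then 0.870, 0.899 and 1.31 TPM at those stages. Both were higher at 60 min (0.78 ± 0.12 and 0.84 ± 0.11), turning to -0.49 and -0.047 with the same total, and in asynchronous cells Rpl5 was higher than in mitosis (0.54 ± 0.10) while Rpl11 was not called (-0.15 ± 0.10). These asynchronous values were -0.015 and -0.54 with the same total. Rpl3, near the peptidyl transferase centre, rose by 0.52 ± 0.13, Rpl39, which lines the exit tunnel, by 0.85 ± 0.13, and Rpl36a (chrX:134585654-134588062, plus strand) by 0.58 ± 0.13. Rpl38, known for its part in the translation of Hox mRNAs, rose by 0.82 ± 0.14 and ended at 11.6, 14.1 and 15.3 TPM in asynchronous cells, above its 60 min values of 10.7 and 8.98 TPM. These last 4 also turned negative with the same total (-0.73, -0.37, -0.58 and -0.38).

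The paralogue-type genes included a member with a transient course. Rpl3l, which replaces Rpl3 in heart and skeletal muscle, was at 0.105, 0.0664 and 0.0562 TPM in mitosis, 1.14 and 1.24 TPM at 60 min, 0.183 and 0.375 TPM at 120 min and 0.0290, 0.0230 and 0.0872 TPM in asynchronous cells. With means of 0.0757 TPM in mitotic and 0.0464 TPM in asynchronous cells, it passed the authors' threshold of 0.5 TPM only through the released groups in which it is high, so a difference from mitosis and asynchronous cells was a condition of its listing. As a description, the log2 difference from mitosis was 1.04 at 60 min (0.70 with the same total) and -0.04 in asynchronous cells, and 120 min lay 0.78 below 60 min. The log2(TPM + 1) scale understates changes at such low levels. Rps27l, a p53-responsive paralogue of Rps27, rose by 1.07 ± 0.14, Rpl7l1 by 0.90 ± 0.13, Rpl39l, best known from testis, by 0.78 ± 0.13 and the retrocopy Rpl37rt by 0.73 ± 0.10, and all 4 turned to between -0.26 and -0.033 with the same total. Rps19bp1, which is no ribosomal protein, rose from 0.418, 0.565 and 0.422 TPM to 2.70 and 2.05 TPM (1.22 ± 0.11, or 0.53 with the same total). Paralogues and retrocopies share sequence with their parent genes, so reads may be split between them.

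**Figure D3:**
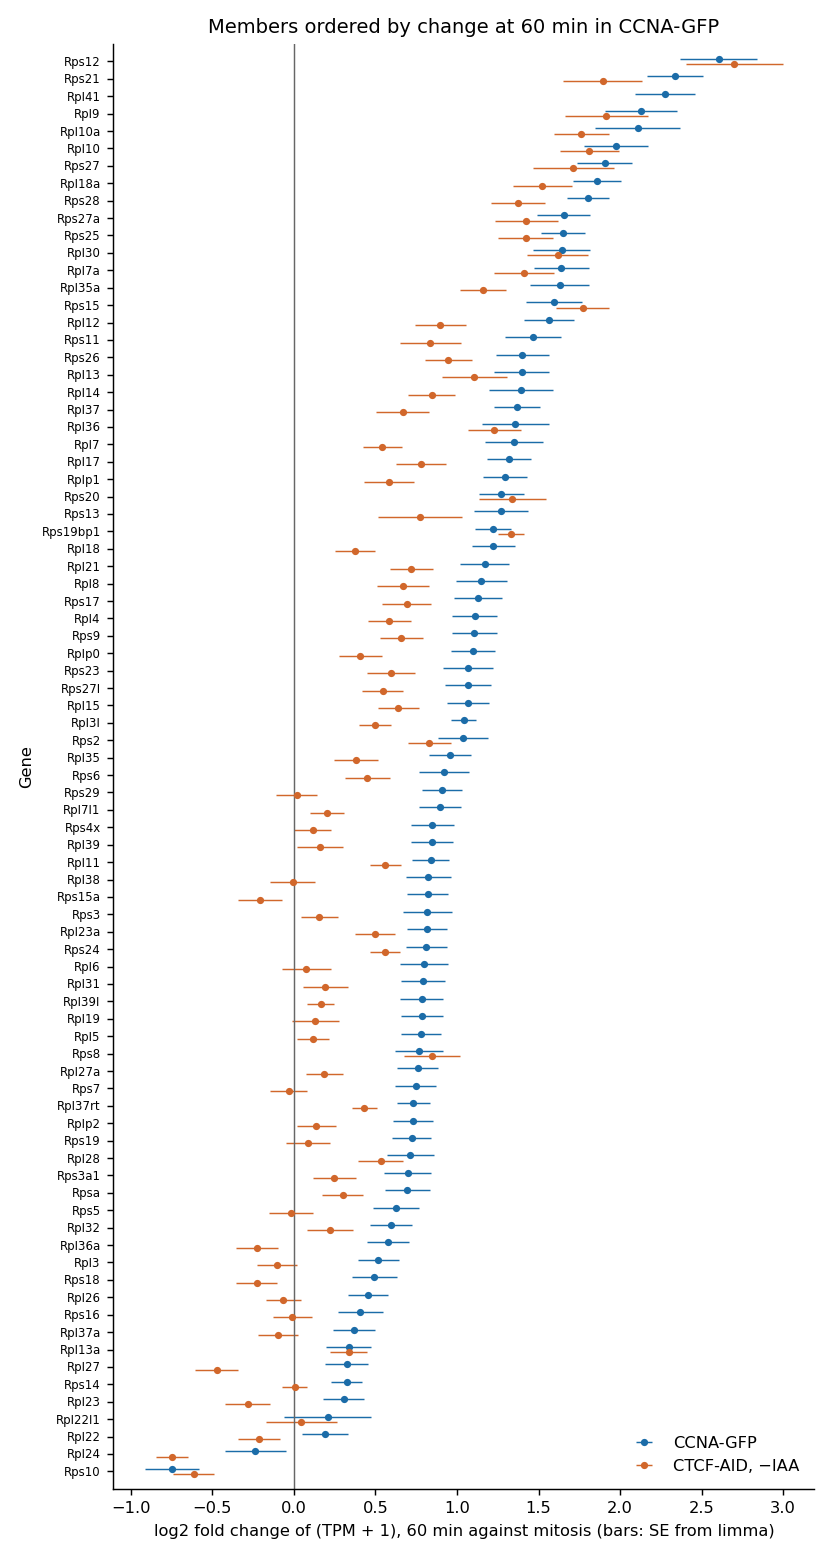
Log2 difference in pre-mRNA level (log2(TPM + 1), ± SE) between 60 min and mitosis for each ribosomal protein gene, ordered by its CCNA-GFP value, in CCNA-GFP (blue) and CTCF-AID without IAA (orange). CCNA-GFP values run from -0.75 for Rps10 to 2.61 for Rps12 on the deposited scale and exceed the CTCF-AID values for 75 of 81 genes; with libraries brought to the same total the CCNA-GFP median is -0.16.

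A second comparison asked whether pre-mRNA levels at 60 min overshot those of asynchronous cells. In CCNA-GFP 30 members were higher at 60 min than in asynchronous cells and 6 lower, against 67.0% and 8.6% of all genes, with a median log2 difference of 0.20 against 0.47. The 30 include Rpl3l, listed only through its high released groups, and 29 of 81 were higher without it. Members were thus called higher at a smaller share than all genes, and the members' median was below that of all genes under every setting tried (by 0.22 to 0.51). Genes listed only through released groups were not taken out of the values for all genes. Their part in this contrast was not tested. The members' split itself depended on scaling, with 5 higher and 63 lower with the same total (35.0% and 35.2% of all genes) and 8 higher and 17 lower with the rounding factor (42.1% and 15.3%), and without replicate 1 there were 10 higher. The 6 lower members were Rpl24 (-1.58), Rps10 (-1.1), Rpl35a (-0.49), Rps27a (-0.38), Rps6 (-0.37) and Rpl38 (-0.36). Omission of a single replicate moved the number lower to between 2 and 10. Conversely Rps16 (1.03 ± 0.14), Rpl11 (0.99 ± 0.11), Rps27l (0.80 ± 0.14) and Rpl13a (0.77 ± 0.14) were among those above asynchronous cells on the deposited scale. With the same total, Rps16 differed from mitosis by -0.89 at 60 min and -1.20 in asynchronous cells. In that order the values were -0.047 and -0.54 for Rpl11, -0.063 and -0.22 for Rps27l, and -1.02 and -1.03 for Rpl13a. Rpl13a was thus nearly level between those stages. From 60 to 120 min 8 members fell and 2 rose, against 28.5% and 9.6% of all genes, and with the same total 5 fell and 16 rose (21.7% and 24.4%). The 8 were Rpl3l, Rps13, Rps28, Rps19, Rps16, Rpl37rt, Rpl11 and Rplp2, and without replicate 1 the count was 3. Rpl3l was listed through its high released groups, and without it 7 of 81 fell. By mean level, 58 of 82 members (70.7%), among them Rpl3l, stood above asynchronous cells at 60 min, against 77.8% of all genes, and 12 members (14.6%) had their highest mean in asynchronous cells, against 10.4%.

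CTCF-AID cells without IAA gave a log2 difference at 60 min below that of CCNA-GFP cells for 75 of the 81 shared members (92.6%), against 74.4% of the 9574 genes in both tables. The lines are in separate tables and their difference was not tested. At 60 min 49 of 81 members were higher than in mitosis and 3 lower, against 84.2% and 2.36% of all genes, with a median log2 difference of 0.50 against 0.64. With IAA the counts were 48 higher and 4 lower (80.6% and 3.8% of all genes), with a median of 0.58 against 0.63. With the same total the splits turned, to 17 higher and 49 lower without IAA and 18 higher and 43 lower with IAA, against 37.9% and 29.5%, and 39.6% and 32.2%, of all genes. Without the members listed only through released groups (Rpl3l and Rpl37rt, and Rpl22l1 without IAA) 47 of 78 and 46 of 79 were higher on the deposited scale. These members were set by an asynchronous mean under 0.5 TPM in the arm itself. Both arms share a listing, and Rpl22l1 averaged 0.559 TPM in asynchronous cells with IAA, so its listing need not rest on released groups alone. At 20 min 0 members were called in either arm (0.0% of all genes, limma), where 10 and 5 had an unadjusted p under 0.05. At 40 min 50 members were higher and 2 lower without IAA (62.4% and 2.37%), and 51 higher and 1 lower with IAA (55.5% and 2.83%). The members' median with IAA was 0.47 at that time, against 0.29 over all genes. The counts at 40 min with the same total were 22 higher and 35 lower (31.8% and 34.2%), and 27 higher and 31 lower (32.5% and 37.6%), and without replicate 1 the arm without IAA had 29 higher. At 50 min the counts were 50 higher and 5 lower (78.1% and 4.25%) without IAA and 55 higher and 2 lower (77.5% and 4.64%) with IAA. Those for 50 min with the same total were 19 and 41 (39.2% and 32.1%), and 19 and 40 (40.1% and 35.0%). Leaving out the members listed only through released groups, 49 of 78 and 49 of 79 were higher at 40 min. At 50 min 48 of 78 and 53 of 79 were.

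Later times and cycling cells were compared in the same way in these arms. At 90 min 40 members exceeded mitosis and 12 were below it without IAA (71.9% and 3.04% of all genes) and 42 higher and 14 lower with IAA (72.6% and 3.99%). The 120 min libraries gave 42 and 13 without IAA (68.1% and 2.81%), and 43 and 10 with it (64.9% and 3.97%). The same total gave 17 higher with 38 lower (31.6% and 23.1%), and 20 with 40 (35.8% and 26.9%), for 90 min. For 120 min it gave 19 with 37 (29.3% and 23.8%), and 22 with 37 (32.7% and 27.7%). Leaving out the members listed only through released groups, 39 of 78 and 40 of 79 were higher at 90 min on the deposited scale. At 120 min 40 of 78 and 43 of 79 were. Without IAA, omission of replicate 3 left 22 higher at 90 min and omission of replicate 2 left 26 at 120 min. The lower counts also moved on omission of a single replicate. Without IAA they were 5 to 13 at 90 min and 2 to 14 at 120 min, and with IAA 5 to 17 and 3 to 16. In asynchronous cells against mitosis 40 members were higher and 6 lower without IAA (30.7% and 4.48%) and 41 higher and 7 lower with IAA (37.6% and 4.97%). The members' medians were 0.33 and 0.32 against 0.12 and 0.15 over all genes. Under the same total 38 were higher and 19 lower (23.9% and 18.9%), and 37 and 21 (29.2% and 21.9%). The rounding factor gave 58 higher and 1 lower without IAA (6605 and 151 of all 10237 genes). With IAA it gave 56 and 1 (6844 and 220). Omission of a single replicate left 0 to 4 lower without IAA and 2 to 8 with IAA. Against asynchronous cells, 60 min was higher for 16 members and lower for 8 without IAA (74.8% and 6.49%), and for 18 and 5 with IAA (70.5% and 7.49%). Without the members listed only through released groups they were 14 and 8, and 16 and 5, while the shares of all genes still include such genes. The splits became 5 higher and 68 lower (35.9% and 31.2%), and 6 and 65 (36.1% and 33.0%), with the same total, and omission of replicate 1 or 2 left 10 or 9 higher without IAA. The rounding factor gave 8 higher and 22 lower without IAA (6308 and 1127 of all 10237 genes). With IAA it gave 8 and 25 (5845 and 1441). From 60 to 120 min 13 members fell and 1 rose without IAA (51.1% and 6.4%), and 13 fell and 2 rose with IAA (48.7% and 6.64%). With the same total 3 fell and 32 rose (23.7% and 22.5%), and 3 fell and 28 rose (26.4% and 26.2%), and omission of a single replicate moved the 13 to between 3 and 11, and between 5 and 21. Without the members listed only through released groups 11 of 78 and 11 of 79 fell.

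Member by member, the order of responses was alike between the lines, while fewer genes were called in CTCF-AID cells. Across the 81 shared members, Spearman's rho between the 60 min log2 differences of CCNA-GFP and CTCF-AID without IAA was 0.90, a description over genes that are not independent. Of these, 47 (58.0%) were higher in CCNA-GFP and in both CTCF-AID arms, against 79.2% of all shared genes, and 25 were higher in CCNA-GFP and called in neither arm (30.9% against 5.47%). Another 2, Rpl23 and Rpl27, were higher in CCNA-GFP and lower in a CTCF-AID arm (0.292% of all shared genes). Rps12 was again at the top, with 2.15, 3.34 and 0.802 TPM in mitosis and 18.1 and 19.9 TPM at 60 min without IAA (2.70 ± 0.30), and 1.32, 3.33 and 1.13 TPM and 15.1 and 18.9 TPM with IAA (2.63 ± 0.23). Rps27a rose by 1.42 ± 0.19 and 1.63 ± 0.17, Rps27 by 1.71 ± 0.25 and 2.17 ± 0.19, and Rpl10 by 1.81 ± 0.18 and 1.92 ± 0.13, without and with IAA. The same total gave 0.52 and 0.75, 0.89 and 1.44, and 0.90 and 1.03, and Rps12 was at 1.87 and 1.83. Rps10 was again lower at 60 min, by -0.61 ± 0.13 from 11.4, 9.20 and 11.5 TPM to 6.97 and 6.21 TPM without IAA, and by -0.69 ± 0.16 with IAA. At 120 min Rps10 stood at 6.0 and 5.65 TPM without IAA, still below all 3 mitotic libraries. Rpl24 fell from 6.26, 5.47 and 6.68 TPM to 3.42 and 2.70 TPM at 60 min without IAA (-0.75 ± 0.10), and by 0.34 ± 0.14 with IAA. Rps10 with the same total was at -1.51 and -1.55 and Rpl24 at -1.56 and -1.14, without and with IAA. The mitotic level of Rpl24 in CCNA-GFP, in the other table, was 1.13 to 1.91 TPM. Rplp2 (0.14 ± 0.12), Rps3 (0.16 ± 0.11), Rps19 (0.09 ± 0.14), Rpl3 (-0.10 ± 0.12), Rpl5 (0.12 ± 0.10), Rpl38 (-0.01 ± 0.14) and Rpl39 (0.16 ± 0.14) were not called at 60 min without IAA on the deposited scale. All 7 were lower with the same total, at -0.82, -0.74, -0.88, -1.02, -0.83, -0.94 and -0.76.

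Members with more intron sequence showed smaller changes. Intronic length, the part of the gene outside the exon union of Gencode vM21, was set against the log2 difference at 60 min for the 75 genes of the subunits in CCNA-GFP, giving Spearman's rho of -0.64, and for 74 in CTCF-AID, giving -0.67 without and -0.70 with IAA. Over all listed genes with a position (99.9%) rho was -0.38, -0.38 and -0.43. These are descriptions across genes that share libraries. In CCNA-GFP all 18 members with under 500 intronic bases were higher at 60 min (median 1.64), as were all 32 with 500 or more but under 2000 bases (1.05) and 22 of 25 with 2000 or more (0.78), where 92.0%, 94.6% and 87.6% of all genes in those classes were higher. Without IAA 16 of 17, 22 of 32 and 7 of 25 were higher, with medians of 1.34, 0.56 and 0.12, where all genes gave 89.9%, 92.2% and 83.4%. With IAA 16 of 17, 22 of 32 and 5 of 25 were higher, where all genes gave 89.5%, 92.0% and 79.5%. The class with the longest introns held most of the subunit genes that were not called higher in the CTCF-AID line. Between asynchronous and mitotic cells the members' rho was -0.65, -0.71 and -0.70, whereas over all genes it was -0.003, -0.10 and -0.16. Restricted to the 57 members with at least 500 intronic bases, rho at 60 min was -0.45, -0.47 and -0.52. The pre-mRNA isoform spans exons as well as introns, and where introns are short its reads can come from spliced mRNA, whose part in the relation was not tested.

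**Figure D4:**
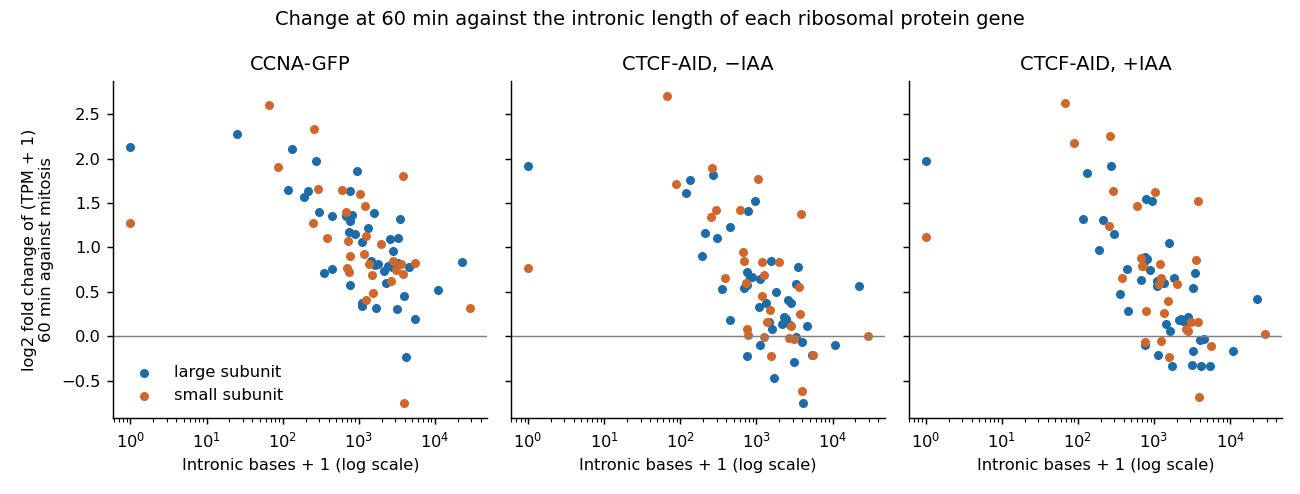
Log2 difference in pre-mRNA level between 60 min and mitosis against intronic length (bases + 1, log axis) for large-subunit and small-subunit genes, in CCNA-GFP, CTCF-AID without IAA and CTCF-AID with IAA. Members with few intronic bases lie highest in each panel; Spearman's rho is -0.64, -0.67 and -0.70.

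Members that host a snoRNA had medians close to those of the other members. The 30 host genes had a median log2 difference at 60 min of 0.94 and the 45 other subunit genes one of 0.96 in CCNA-GFP. In CTCF-AID without IAA the medians were 0.63 and 0.49. The median mitotic level in CCNA-GFP was 7.0 TPM in hosts and 5.34 TPM in the others.

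The last comparison asked what CTCF depletion did at each stage. IAA acts on the CTCF protein, so the Ctcf pre-mRNA does not check the labels, and it was similar in both arms (6.22 ± 0.52 and 6.57 ± 0.56 TPM in mitosis, SD, n = 3, and 7.26 ± 1.64 and 8.73 ± 1.89 TPM in asynchronous cells). At an adjusted p under 0.1 and an absolute log2 difference over 0.2 (limma without a block), 3 of 81 members were lower with IAA in asynchronous cells and 0 higher, against 0.694% and 0.313% of all genes. Rpl36, a large-subunit protein (chr17:56613416-56614243, plus strand), had 19.4, 24.0 and 30.0 TPM without and 10.8, 14 and 14.7 TPM with IAA. Rpl36a had 8.35, 8.06 and 9.70 TPM without and 5.12, 5.53 and 5.81 TPM with IAA. Rplp0 had 8.40, 6.34 and 9.49 TPM without and 4.72, 5.40 and 5.57 TPM with IAA. The groups did not overlap for any of the 3 genes, and the log2 differences were -0.84 ± 0.16 (adjusted p = 0.0034), -0.58 ± 0.13 (0.019) and -0.53 ± 0.13 (0.049). Omission of replicate 1 or of replicate 3 from both arms left 0 of the calls, omission of replicate 2 left Rpl36a and Rplp0, and the rounding factor left Rpl36. The differences themselves stayed at -0.77 to -0.89, -0.54 to -0.63 and -0.44 to -0.70 over these omissions, which leave fewer samples to test. With the same total all 3 stayed lower, by -0.85, -0.60 and -0.55.

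During release Rpl36 was the member with a call. At 90 min it had 28.7 and 30.6 TPM without and 18.2 and 15.2 TPM with IAA, a difference of -0.79 ± 0.19 (adjusted p = 0.055, limma, where 0.557% of all genes were lower), a call that was lost on omission of any replicate, where the difference was -0.63 to -0.96, and with the rounding factor. The libraries with IAA were lower than their same-numbered partners in 18 of 18 pairs for Rpl36 and in 17 of 18 pairs each for Rpl36a and Rplp0. Members not called without the block did the same, with 18 of 18 pairs for Rpl32 and 17 of 18 each for Rpl5 and Rps4x, so 6 of 81 members were lower in at least 17 pairs and 0 were higher in as many, against 2.72% and 0.469% of all genes. The 18 pairs come from 3 replicate numbers. In mitosis, where IAA was already present, the differences were -0.13 ± 0.16, -0.20 ± 0.13 and -0.06 ± 0.13, and none was called. With the replicate number as a block, 3 members were called at 90 min rather than 1, namely Rpl36 (adjusted p = 0.0088), Rpl36a (-0.53 ± 0.14, 0.044) and, higher with IAA, Rps24 (0.42 ± 0.09, 0.010), and in asynchronous cells Rpl5 (-0.36 ± 0.08, 0.015) joined the 3. The block called 1.26% of all genes lower and 0.449% higher at 90 min, and 1.53% lower and 0.899% higher in asynchronous cells. No member was called in mitosis or at 20, 40, 50, 60 or 120 min by limma, where 1, 4, 1, 1, 1 and 1 had an unadjusted p under 0.05. Few genes of any kind were called at these stages, 0.0% in mitosis and at 20 and 40 min, and at most 0.459% lower and 0.127% higher at 50, 60 and 120 min. The test of whether IAA altered the rise from mitosis to 60 min, in the limma fit without a block, called 0 members and 0 genes. There 1 member and 79 genes had an unadjusted p under 0.05. Over all 81 members the median difference in asynchronous cells was -0.03, against 0.01 over all genes.

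**Figure D5:**
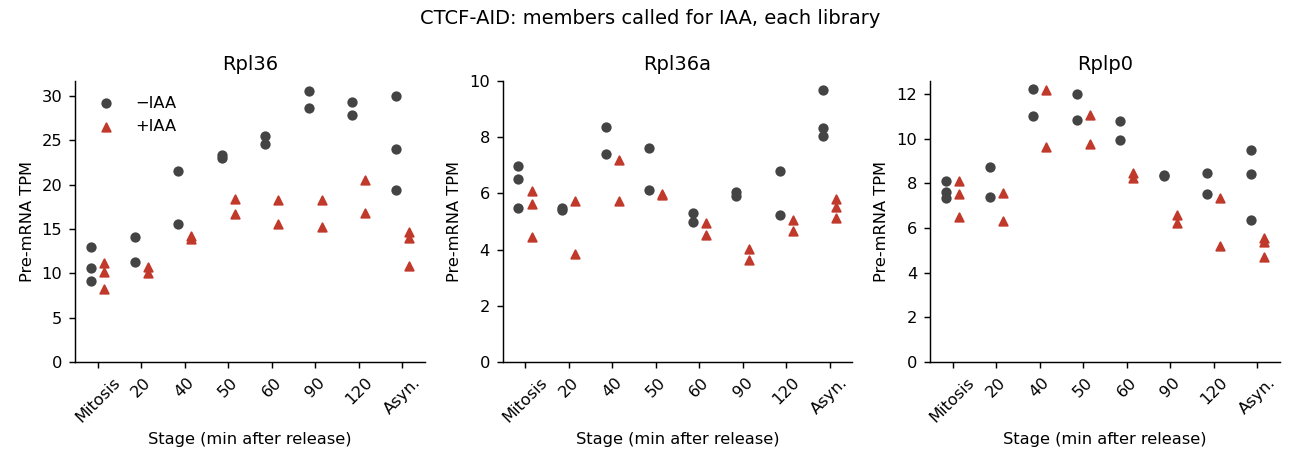
Pre-mRNA level (TPM) of Rpl36, Rpl36a and Rplp0 in each CTCF-AID library against the stage, without IAA (circles) and with IAA (triangles). In asynchronous cells the libraries with IAA lie below those without for all 3 genes, as at 10.8 to 14.7 TPM against 19.4 to 30.0 TPM for Rpl36.

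Genes with TOP transcripts that fall outside the symbol rule were compared from a list of names. These, chiefly translation factors, were listed in 13 of 15 cases in CCNA-GFP, where 12 were higher at 60 min and 0 lower (88.3% and 0.515% of all genes), with a median log2 difference of 0.83. Eef1a1 and Eef2, the elongation factors, rose by 1.36 ± 0.13 and 1.35 ± 0.15, while Eef1g was at 0.22 ± 0.13 and not called. In CTCF-AID without IAA 60 min was higher than mitosis for 7 of 12 listed TOP genes and lower for 1 (84.2% and 2.36% of all genes, median of the list 0.48), and with IAA 7 were higher and 1 lower (80.6% and 3.8%, median 0.42). In asynchronous cells against mitosis 9 of 13 were higher and 1 lower in CCNA-GFP (70.4% and 1.97% of all genes, median of the list 0.32). In the CTCF-AID line 2 were higher and 5 lower without IAA (30.7% and 4.48%, median -0.19), and 2 higher and 3 lower with IAA (37.6% and 4.97%, median -0.18). The list was not tested against the ribosomal protein genes.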

How the data were processed

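Ribo-depleted, stranded, paired-end RNA-seq of 55 libraries was read from the 2 deposited tables of pre-mRNA TPM. Per the study's methods and the submitters' processing notes, the authors aligned reads to mm10 with STAR, ran RSEM against Gencode vM12 extended by 1 unspliced isoform for each gene, and deposited TPM, a length-corrected share of transcripts, for RefSeq curated genes with a mean above 0.5 TPM in asynchronous or at least 2 post-mitotic samples. Versions of STAR and RSEM are not given in the sources used here. The deposited TPM values step in units that differ between libraries, which points to an extra factor per library that no source used here describes, so dividing by it (the rounding factor) was an alternative. TPM hold no counts, so depth and counting error are unknown.

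Values were analysed as log2(TPM + 1) without a further filter, with limma 3.58.1 in R 4.3.3 (empirical Bayes with trend, Benjamini-Hochberg over all listed genes), and with Python 3.11.15, pandas 2.3.3 and scipy 1.17.1. Columns were matched to samples by name, apart from the asynchronous CTCF-AID columns, whose deposited names have a garbled stage. These were assigned from the pattern of the garbling and from the intact names in the paper's supplement. The asynchronous CTCF-AID results rest on that assignment. Each stage was compared with mitosis, 60 min with asynchronous cells and 120 with 60 min within each line and arm, with the replicate number as a block, calling adjusted p under 0.05. IAA was compared at each stage without a block, calling adjusted p under 0.1 and an absolute log2 difference over 0.2. Same-numbered samples deviated together (correlation 0.34 to 0.80 in CCNA-GFP, 0.29 to 0.83 without IAA, 0.41 to 0.78 with IAA, and 0.51 to 0.88 between IAA arms), so the numbers pair the samples. Alternatives were the fit with or without the block, libraries brought to the same total, the rounding factor, a pseudocount of 0.1 TPM, a minimum mean of 1 TPM, and omission of each replicate. On simulated data with 200 changed genes (log2 change of 1), 98%, 96.5%, 96% and 93% were recovered at 60 min in CCNA-GFP, without IAA, with IAA and for the IAA effect. Of the genes called, 4.39%, 3.98%, 4% and 9.27% were unchanged ones. The simulated noise was independent between libraries and few genes changed. The rates therefore do not carry over to smaller differences or to a rise shared by most genes.

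Gene positions, exon unions and snoRNAs came from Gencode vM21 (GRCm38, the assembly of mm10, in a later release than the authors' vM12), and promoters from RefSeq. The members, gene lists and tests were chosen with earlier results of these data known. Genes were named by level (4 highest and 4 lowest means in CCNA-GFP), by log2 difference at 60 min (5 largest and 5 smallest), by any IAA call (at most 12), as paralogue-type members, by role, or as lower than mitosis at 60 or 120 min, which gave 38 genes. Other genes named singly, such as Rps16, Rpl35a, Rps28, Rps24, Rpl32, Rps4x and Rpl27, belong to counts given in the text, and their choice followed a look at the values.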

Additional observations from a re-analysis of the deposited data

Results flagged for a closer look

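For 6 members every CCNA-GFP library pair of one replicate number moved up from mitosis to 60 min and every pair of CTCF-AID without IAA moved down. The share of all genes with such a split was not counted, so the split is not shown to be particular to the members. Of all shared genes, 74.4% had the larger log2 difference in CCNA-GFP. Replicate 2 of CCNA-GFP hardly moved for Rpl22, from 10.596 to 10.607 TPM. The mean ratio of TPM + 1 at 60 min to mitosis was 1.12 in CCNA-GFP and 0.855 in CTCF-AID for Rpl22, 1.22 and 0.803 for Rpl23, and 1.27 and 0.728 for Rpl27. It was 1.54 and 0.882 for Rpl36a, 1.76 and 0.862 for Rps15a, and 1.42 and 0.830 for Rps18. Between mitotic and asynchronous cells the same split appeared for Rpl27 (1.26 and 0.815), Rpl5 (1.46 and 0.955), Rps10 (1.28 and 0.769) and Rps15a (1.29 and 0.826). The lines stand in separate tables, so these differences were not tested, and with libraries brought to the same total the CCNA-GFP log2 differences turned negative for all of them, at -1.07, -1.0, -0.93, -0.58, -0.43 and -0.80 at 60 min for Rpl22, Rpl23, Rpl27, Rpl36a, Rps15a and Rps18, and at -0.22, -0.015, -0.17 and -0.19 in asynchronous cells for Rpl27, Rpl5, Rps10 and Rps15a.

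Within CTCF-AID, Rpl5 rose from mitosis to 60 min in every pair without IAA and fell in every pair with IAA, with mean ratios of 1.09 and 0.982. The test of that difference gave -0.13 ± 0.25 on the log2 scale (limma, adjusted p = 1.00, unadjusted p = 0.60). That fit had no replicate block, so its SE includes the spread between replicate numbers and it did not use the pairs. These members were picked out by direction alone, with 2 or 3 pairs a group.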

How the results depend on the processing

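Counts of members called were most affected by scaling. The same total removes a rise shared by all genes, so a rise it turned negative was one below that of the summed TPM. With libraries brought to the same total, higher members in CCNA-GFP were 27 at 40 min, 22 at 60 and 90 min, 25 at 120 min and 41 in asynchronous cells. For the CTCF-AID times from 40 to 120 min, in order, they were 22, 19, 17, 17 and 19 without IAA, and 27, 19, 18, 20 and 22 with it. At 60 min against asynchronous cells this scaling left 5, 5 and 6 higher in CCNA-GFP, without and with IAA, and from 60 to 120 min 5, 3 and 3 lower. The rounding factor gave 8, 8 and 8 higher and 17, 22 and 25 lower, in that order, at 60 min against asynchronous cells. It also gave 3 and 22 lower from 60 to 120 min in CCNA-GFP and without IAA, and 10 higher at 30 min in CCNA-GFP. The CCNA-GFP count at 30 min, 1 in the report, was also 4 with a pseudocount of 0.1 TPM and 5 with a minimum mean of 1 TPM, a filter that left 5 lower from 60 to 120 min.

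Without the replicate block, the paired numbers being ignored, 0 members were higher at 30 min in CCNA-GFP, 19 and 10 were higher at 60 min than in asynchronous cells in CCNA-GFP and without IAA, and 4, 5 and 7 were lower at 120 than at 60 min in CCNA-GFP, without and with IAA. For IAA, the replicate block and the same total each gave 3 calls at 90 min, the rounding factor gave 0 there and 1 in asynchronous cells. Small counts in the rarer direction also moved by over 1.5 times without the block in several comparisons, and with the block more of all genes were called for IAA.

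Omission of a replicate gave 0 to 4 higher members at 20 min, 0 to 11 at 30 min and 32 to 61 at 40 min in CCNA-GFP, 10 to 32 at 60 min against asynchronous cells and 3 to 8 lower at 120 against 60 min. Without IAA it gave 29 to 44 higher at 40 min, 22 to 41 at 90 min, 26 to 38 at 120 min, 9 to 16 at 60 min against asynchronous cells and 3 to 11 lower at 120 against 60 min, and with IAA 5 to 21 lower. IAA calls were 0 to 2 in asynchronous cells and 0 at 90 min.

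Of the 38 named genes at 60 min in CCNA-GFP, 21 reversed with the same total: Rpl11 to -0.047, Rpl13a to -1.02, Rpl22 to -1.07, Rpl23 to -1.0, Rpl23a to -0.49, Rpl3 to -0.73, Rpl36a to -0.58, Rpl37rt to -0.033, Rpl38 to -0.38, Rpl39 to -0.37, Rpl39l to -0.25, Rpl4 to -0.19, Rpl5 to -0.49, Rpl7l1 to -0.26, Rplp0 to -0.094, Rplp2 to -0.57, Rps19 to -0.58, Rps27l to -0.063, Rps3 to -0.40, Rps6 to -0.29 and Rpsa to -0.58. A further 3 lost their call with the same total (Rpl7, Rpl36 and Rplp1), 3 with the rounding factor (Rpl3, Rpl13a and Rpl23), 3 without the block (Rpl13a, Rpl23 and Rpl39l) and 2 with each omission of a replicate (Rpl23 each time, with Rpl13a without replicate 1 or 3 and Rps10 without replicate 2). Rpl24 became a lower call with the same total. Rpl22l1 reversed to -0.50 without replicate 2 and was 0.866 without replicate 1. The median of the members minus that of all genes at 60 min in CCNA-GFP was 0.15, and it turned to -0.18 with the same total, -0.13 with a pseudocount of 0.1 TPM and -0.05 with a minimum mean of 1 TPM. The causes were not tested.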
